A study of Bos taurus with 8 samples.

Results

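The dystrophin-glycoprotein complex genes DAG1, SGCA, SGCB, SGCD, SGCE, DMD, UTRN, SSPN and LAMA2 were followed in single-cell RNA sequencing of bovine skeletal muscle and of the cells grown from it. They were chosen by symbol among 21880 genes, and 8 of the 9 had a row of their own. DMD was matched to no symbol and was not analysed here.

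The complex spans the plasma membrane of muscle fibres and links the actin cytoskeleton to the basal lamina. Dystroglycan, encoded by DAG1, binds laminin outside the cell through sugar chains on its alpha subunit, and binds dystrophin or its relative utrophin inside it. The sarcoglycans and sarcospan form a side complex that holds dystroglycan in place, and loss of several of these genes causes muscular dystrophies in humans and other mammals.

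The cells came from Belgian Blue cattle, calves and adult animals, 10 donors in all, each told apart from the others by its genotype. Timepoint 1 is cells straight from muscle, Timepoint 2 is passage 0 after 72 h on fibronectin in a medium free of serum, and Timepoints 3, 4 and 5 are passage 2, passage 5 and passage 8, while donor 3 was used at Timepoint 1 only. In the later passages each donor was grown as 1 kind of culture, unsorted cells on fibronectin (donors 1, 2 and 9), sorted satellite cells (SCs, the stem cells of skeletal muscle) on laminin-521 (donors 5, 6 and 10), or sorted fibro-adipogenic progenitors (FAPs, the connective tissue progenitors of muscle) on collagen I (donors 4, 7 and 8). There was 1 library matrix per timepoint, so a timepoint and its library cannot be told apart, and culture kind, coating and donor cannot be told apart either.

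The 5 libraries held between 2772 and 10405 typed cells. The median UMI count per cell was 4184 in muscle and between 18340 and 27239.5 in culture, and 129 barcode sequences occurred in more than 1 library. Cell types are those deposited by the authors: SCs, FAPs, vascular and lymphatic endothelial cells (VECs and LECs), a joint class of smooth muscle and mesenchymal cells (SMMCs), lymphocytes, monocytes/macrophages and a few rarer classes. Their marker genes were highest in their own class apart from DCN (FAPs at Timepoint 1), DES (SCs at Timepoints 1 and 2), CD68 (monocytes/macrophages at Timepoint 1) and CHRDL2 (SCs at Timepoints 2, 3 and 5). A level below is the number of UMIs of the gene per 1000000 UMIs (CPM) in the summed cells of 1 donor and 1 cell type, with at least 10 cells. A gene was called where edgeR's quasi-likelihood test gave a Benjamini-Hochberg adjusted p below 0.05 over all genes tested together with a log2 fold change (log2FC) beyond 1 in either direction.

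In muscle, among the 7 cell types with sums from at least 3 donors, DAG1 and SGCA were the members most concentrated in SCs, LAMA2 was highest in FAPs and then in SCs, UTRN was highest in endothelial cells and SSPN in SMMCs. Tenocytes, glial cells, myocytes and neutrophils had fewer cells and stand outside this order. Because types had been assigned from the same expression values, a type set against all other cells describes the assignment as well as the gene.

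Starting with dystroglycan, DAG1 ranged from 25.1 to 100.9 CPM over the 10 donors in SCs (median 67.2), against 3.01 to 9.43 CPM in FAPs (median 5.41). Every donor's SCs lay above every donor's FAPs. LECs of all 10 donors held 5 UMIs in 81 cells. The 4 donors with at least 10 LECs had 0 to 35.6 CPM (median 15.02), a range that reached above the lowest SC donors. In VECs the median was 8.69 CPM and in SMMCs 7.14 CPM, and among 403 monocytes/macrophages 1 UMI was found in all. Against all other cells of the same donors DAG1 was higher in SCs with a log2FC of 3.33 ± 0.24 (SE, 10 donors, edgeR adjusted p = 1.69e-11). DAG1 passed the filter on low counts through SCs, where it is high, so nothing is read from this call.

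LAMA2, the alpha-2 chain of the laminin of the muscle basal lamina and a ligand of dystroglycan, ranged from 269 to 765 CPM in FAPs (median 552) and from 134 to 372 CPM in SCs (median 240). The ranges of the 2 types overlapped, yet each of 10 donors had the higher level in FAPs, and SCs were lower with a log2FC of -1.25 ± 0.19 (adjusted p = 5.67e-06). In the other types with at least 3 donors the median was between 0 CPM in monocytes/macrophages and 19.0 CPM in SMMCs. Among the rarer classes, 23 tenocytes had a pooled LAMA2 level of 381 CPM (95% Poisson interval 286 to 496) and 51 neutrophils one of 263 CPM (172 to 386). The 26 UMIs of the neutrophils came from 5 cells, 12 of them from 1 cell, and the 1 donor with at least 10 neutrophils held 6645 CPM of the summed FAP markers there. LAMA2 was detected in 80.4% of FAPs and 53.5% of SCs, against 0.744% of monocytes/macrophages, with median depths of 6213, 3861 and 6108 UMIs per cell.

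Among the sarcoglycans, SGCA (alpha-sarcoglycan, the subunit most tied to striated muscle) showed the steepest profile. It ranged from 192 to 381 CPM in SCs (median 269), from 3.18 to 22.2 CPM in FAPs (median 11.0) and from 0 to 32.5 CPM in VECs (median 8.69). SCs of every donor lay above all FAPs, and the log2FC of SCs against FAPs was 4.57 ± 0.21 (adjusted p = 3.16e-16). SGCA passed the filter on low counts through SCs, where it is high, so nothing is read from this call. The 45 cells typed as myocytes, too few for sums per donor, gave 30 UMIs of SGCA and a pooled level of 180 CPM (95% Poisson interval 122 to 258).

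SGCB and SGCE, the beta and epsilon subunits, were spread over SCs and FAPs alike. SGCB had medians of 97.8 CPM in FAPs (70.9 to 115) and 88.9 CPM in SCs (44.1 to 138), and SCs exceeded FAPs in 6 of 10 donors. SGCE, whose product replaces the alpha subunit outside striated muscle, had medians of 119 CPM in FAPs (92.7 to 159) and 173 CPM in SCs (103 to 274). The SGCE ranges overlapped, SCs were higher in 9 of 10 donors, and the log2FC of 0.43 ± 0.15 (adjusted p = 0.0156) was below the fold limit. SGCE had medians of 46.5 CPM in VECs and 2.71 CPM in monocytes/macrophages, and ranged from 10.2 to 94.9 CPM in SMMCs.

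SGCD, the delta subunit, was sparse. FAPs held 60 UMIs of it in 1231 cells, with 1.78 to 9.91 CPM per donor (median 6.67), and SCs held 7 UMIs in 647 cells with 4 of 10 donors at 0. LECs of all donors held 5 UMIs in 81 cells. The 4 donors with at least 10 LECs had 0 to 30.4 CPM (median 7.68), with 2 of the 4 at 0. No UMI was found in monocytes/macrophages or lymphocytes, which at 3 counts of the total allows up to 1.16 and 3.20 CPM, and SGCD passed the filter on low counts in no comparison within muscle.

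SSPN, which encodes the membrane protein sarcospan, ranged from 53.8 to 136 CPM in SMMCs (median 87.2), from 36.6 to 75.8 CPM in SCs (median 66.7) and from 30.3 to 69.4 CPM in FAPs (median 54.2). SMMCs overlapped both neighbours, and their log2FC against all other cells was 1.17 ± 0.16 (adjusted p = 5.87e-07). The median in VECs was 21.0 CPM. In monocytes/macrophages 8 of 10 donors were at 0.

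UTRN, which encodes utrophin, was the only member called higher in VECs. It ranged from 291 to 473 CPM there (median 381), from 327 to 531 CPM in the 4 donors with enough LECs (median 406), and from 153 to 588 CPM in SMMCs (median 274). The medians in FAPs (133 CPM), SCs (134 CPM) and lymphocytes (137 CPM) were close to each other and their ranges overlapped. VECs differed from all other cells with a log2FC of 1.40 ± 0.12 (adjusted p = 2.93e-10), and monocytes/macrophages, at a median of 39.4 CPM, with one of -2.53 ± 0.20 (adjusted p = 1.25e-11).

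**Figure D1:**
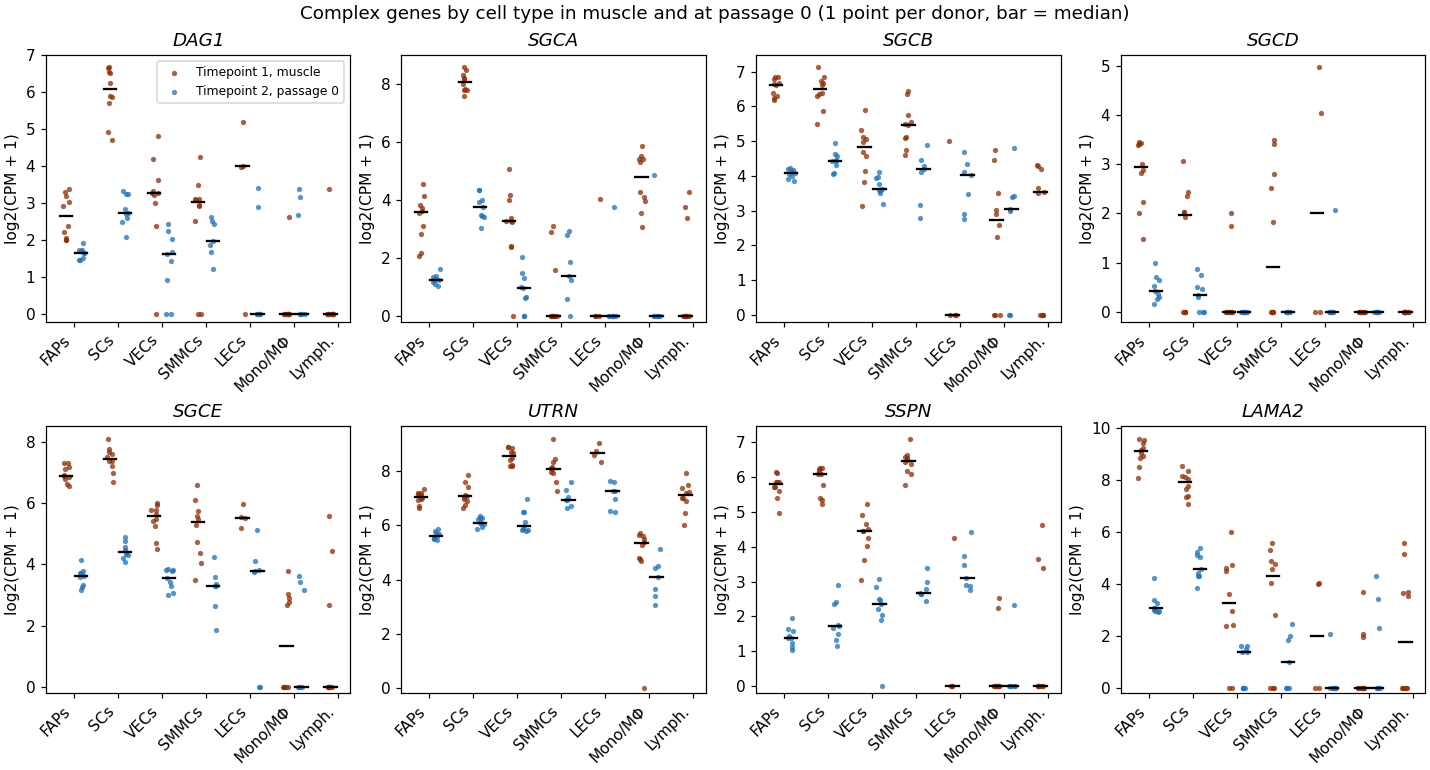
Levels of the 8 members in muscle (brown) and at passage 0 (blue), as log2(CPM + 1) on the y axis, by cell type on the x axis, with 1 point per donor and a bar at the median. Among the types shown, DAG1 and SGCA have their highest medians in SCs in both libraries, LAMA2 passes from highest in FAPs in muscle (median 552 CPM) to highest in SCs at passage 0 (median 22.8 CPM), and SGCA in muscle monocytes/macrophages has a median of 28.6 CPM.

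Counted over types in muscle, SCs had 3 members called higher and 0 lower of 7 tested, where 21.5% of all genes tested were called in either direction. FAPs had 3 higher and 1 lower of 6 tested (21.9% of all genes), SMMCs 1 higher and 3 lower of 6 (21.4%), VECs 1 higher and 5 lower of 6 (23.7%). Monocytes/macrophages and lymphocytes each had 5 of 6 tested members lower and 0 higher, where 30% and 33.5% of all genes were called in either direction. Members that are low in a type passed the filter through the other cells and could only be called lower there, so nothing is read from the counts of lower calls. DAG1 and SGCA in SCs passed it through SCs and could only be called higher, so their calls add nothing to the count there. LAMA2 was at 0 in 7 of 10 donors and SSPN in 8 of 10 in monocytes/macrophages, and SSPN, SGCE and SGCA each in 7 of 10 in lymphocytes. The LECs had 4 of 7 tested members lower (12.9% of all genes called) on 4 donors, of which SSPN was lost without donor 7 (log2FC -3.12) and SGCB without donor 8 (-2.65) or donor 10 (-2.56), while UTRN was called higher without donor 4 (1.01). The call of SGCE in FAPs (log2FC 1.01 ± 0.16) sat at the fold limit and was lost with no filter (0.97), without TMM factors (0.92) and in thinned sums (0.88).

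Of 57 other genes listed for the pathway (further complex members, enzymes that glycosylate alpha-dystroglycan, other ligands of dystroglycan and other laminin receptors), 27 could be tested in FAPs of muscle, of which 9 were called higher and 5 lower. The ligands took 6 of the 9, among them LAMB1 (log2FC 2.82), a laminin beta chain, and BGN (3.00), the proteoglycan biglycan, and the receptors BCAM (-4.55) and ITGA6 (-4.42) were lower. In SCs 23 were tested, with 4 higher and 6 lower. BGN (log2FC -5.30), ITGA6 (-3.52) and the laminin chain LAMA4 (-3.39) were among the lower ones.

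At passage 0 the concentration of DAG1 and SGCA in SCs was again seen, at lower levels. DAG1 ranged from 3.26 to 8.99 CPM in SCs of 9 donors (median 5.61) and from 1.74 to 2.80 CPM in FAPs (median 2.15). SGCA ranged from 7.27 to 19.3 CPM in SCs (median 12.5) and from 1.05 to 2.03 CPM in FAPs (median 1.36). The 48 glial cells, too few for sums per donor, had a pooled DAG1 level of 19.4 CPM (95% Poisson interval 8.37 to 38.2) from 8 UMIs, above the pooled 6.34 CPM of SCs. SCs and FAPs overlapped for neither gene, and their log2FC was 1.55 ± 0.16 for DAG1 (adjusted p = 7.92e-08) and 3.22 ± 0.19 for SGCA (adjusted p = 1.40e-11). The lowest DAG1 value in SCs, that of donor 2, rests on 3 UMIs.

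LAMA2 stood the other way round from muscle. It ranged from 13.3 to 40.9 CPM in SCs (median 22.8) and from 6.51 to 17.6 CPM in FAPs (median 7.46), with SCs higher in 9 of 9 donors and a log2FC of 1.57 ± 0.25 (adjusted p = 3.48e-05). The highest FAP value belonged to donor 5 and was the only one inside the range of the SCs' values.

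SSPN and UTRN were called higher in LECs and SMMCs at passage 0. SSPN had medians of 7.60 CPM in LECs, 5.35 CPM in SMMCs and 1.61 CPM in FAPs, with calls against all other cells in LECs (log2FC 2.12 ± 0.40, adjusted p = 0.000217) and in SMMCs (1.64 ± 0.29, adjusted p = 0.000201). These levels rest on 1 to 5 UMIs of SSPN per donor in LECs and 1 to 14 in SMMCs. In VECs (median 4.10 CPM) the log2FC of 0.92 became a call of 1.01 with donor as a block. UTRN had medians of 153 CPM in LECs, 122 CPM in SMMCs, 67.4 CPM in SCs, 62.7 CPM in VECs and 47.8 CPM in FAPs. The first 2 overlapped each other and were above all other cells (log2FC 1.33 ± 0.14 and 1.19 ± 0.10, adjusted p = 1.19e-07 and 2.07e-08).

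The counts at passage 0 were 3 members higher and 0 lower of 7 tested in SCs, where 11.6% of all genes were called, and 0 higher and 2 lower in FAPs (12.3% of all genes). They were 0 higher and 2 lower in VECs (27.1%), 2 higher and 1 lower in SMMCs (11.1%), 2 higher and 2 lower in LECs (19.9%) and 0 higher and 2 lower in monocytes/macrophages (12.6%). As in muscle, members with few or no UMIs in a type passed the filter through the other cells and could only be called lower there. VECs held 0 to 5 UMIs of LAMA2 and 0 to 3 of SGCA per donor. Nothing is read from the counts of lower calls.

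Between muscle and passage 0, levels of the members were lower in culture in SCs and FAPs of all 9 donors found at both, apart from SGCD in SCs (6 of 9). How many of all genes fell in every donor, or did not overlap between groups here or elsewhere, was not counted. LAMA2 in FAPs went from a median of 552 CPM to 7.46 CPM, the widest step of any member, with no overlap between libraries and a log2FC of -5.85 ± 0.25 (edgeR adjusted p = 1.55e-14). In SCs LAMA2 fell from a median of 240 to 22.8 CPM (log2FC -3.24 ± 0.24, adjusted p = 1.18e-10).

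SSPN fell from 54.2 to 1.61 CPM in FAPs (log2FC -4.87 ± 0.18, adjusted p = 1.94e-17), from 66.7 to 2.28 CPM in SCs (-4.58 ± 0.27, adjusted p = 1.15e-13) and from 87.2 to 5.35 CPM in SMMCs (-3.72 ± 0.22, adjusted p = 1.36e-13), these being medians over donors. In each of these types the 2 libraries did not overlap. SSPN passed the filter on low counts through muscle, where it is high, so nothing is read from its calls.

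SGCA in SCs fell from a median of 269 to 12.5 CPM (log2FC -4.47 ± 0.18, adjusted p = 3.36e-16) and DAG1 in SCs from 67.2 to 5.61 CPM (-3.57 ± 0.21, adjusted p = 1.49e-13). In SCs both genes passed the filter on low counts through muscle, where they are high, so nothing is read from these calls. In FAPs both genes were too low to test between the libraries, and their medians were 11.0 and 1.36 CPM for SGCA and 5.41 and 2.15 CPM for DAG1. SGCE fell in FAPs (-3.39 ± 0.15), SCs (-3.13 ± 0.15) and VECs (-2.12 ± 0.18), and SGCB in FAPs (-2.44 ± 0.10) and SCs (-2.17 ± 0.16). SGCE in VECs passed the filter through muscle alone, so nothing is read from its call there. In SCs the genes SGCE, SGCB and LAMA2 passed it mainly through muscle. SGCD in FAPs, not tested, had medians of 6.67 CPM in muscle and 0.347 CPM at passage 0.

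UTRN showed the smallest steps among the tested members in FAPs and SCs. Its log2FC was -1.30 ± 0.10 in FAPs, -1.13 ± 0.13 in SCs, -2.44 ± 0.15 in VECs, -1.22 ± 0.19 in SMMCs and -1.62 ± 0.23 in LECs, each called. Without the filter on low counts the values in SCs (-0.76) and SMMCs (-0.98) were no longer past the fold limit.

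**Figure D2:**
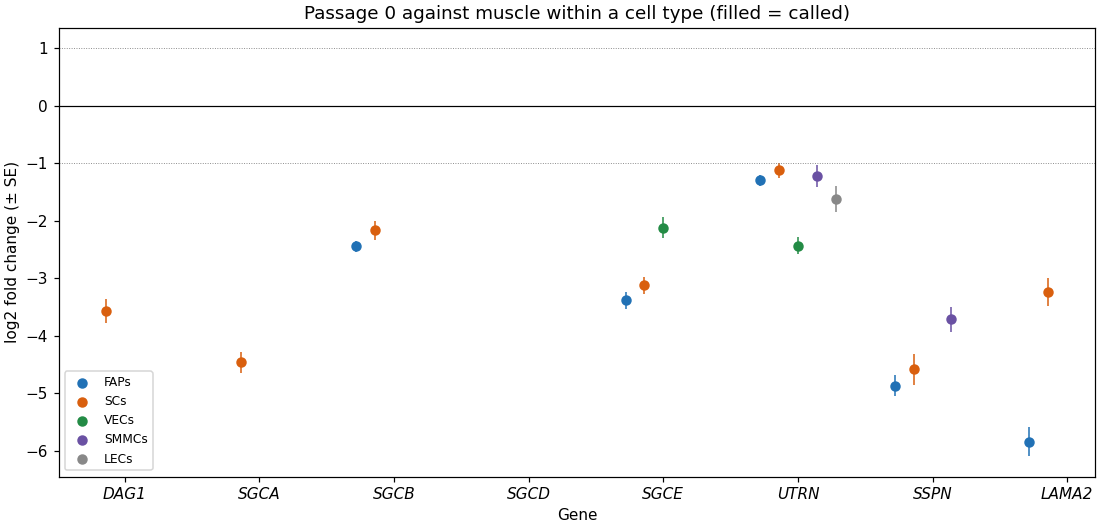
Log2 fold change of passage 0 against muscle on the y axis (± SE) for each tested member on the x axis, coloured by cell type, with filled points called and dotted lines at the fold limit. All points lie below 0, from -5.85 for LAMA2 in FAPs to -1.13 for UTRN in SCs, and no point is shown where a gene was too low to test.

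All tests of members between these libraries were called lower: 5 in FAPs (43.4% of all genes tested were called in either direction), 7 in SCs (34.3%), 2 in VECs (35.1%), 2 in SMMCs (36.4%) and 1 in LECs (29.6%). In monocytes/macrophages no member could be tested, and 34.6% of all genes were called. The muscle sums were small, and members low at passage 0 passed the filter through muscle, where they were high. Such members could only be called lower, and these counts are no measure of all 8 members. The median log2FC over all genes tested was 0.03 in FAPs and -0.01 in SCs.

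Markers of other cells moved with the same contrast. The summed level of 10 muscle fibre genes was 1027 to 1710 CPM in FAPs and 441 to 1299 CPM in SCs of muscle, against 1.11 to 2.86 CPM and 1.02 to 3.71 CPM at passage 0, where MYH1 and MYH2 were at 0 in SCs and MYH2 in FAPs. The 4 FAP markers summed to 58.8 to 863 CPM in SCs of muscle and to 979 to 2015 CPM in SCs at passage 0. Their part in the falls was not tested. The types' own markers were lower too, from a median of 1389 to 96.4 CPM summed over 5 SC markers in SCs and from 23698 to 3503 CPM over 4 FAP markers in FAPs.

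The falls above are falls in the share of a cell's UMIs, and cells at passage 0 held more UMIs. In pooled UMIs per cell LAMA2 went from 3.04 to 0.208 in FAPs and from 0.998 to 0.474 in SCs, and SGCA in SCs from 1.24 to 0.238. UTRN went the other way, from 0.811 to 1.17 UMIs per cell in FAPs and from 0.637 to 1.30 in SCs, and SGCB in SCs was at 0.400 and 0.402. These counts per cell are not corrected for depth.

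Of the 57 other pathway genes 30 were tested in FAPs, with 2 higher and 15 lower at passage 0, and 17 in SCs, with 3 higher and 8 lower. In FAPs the widest steps were those of EGFLAM (log2FC -7.09), the proteoglycan HSPG2 (perlecan, -3.61) and SLIT3 (-2.93), all ligands of dystroglycan. In SCs the laminin receptor BCAM (-3.14) and B4GAT1 (-3.12), an enzyme of the laminin-binding sugar of dystroglycan, were among the genes that fell.

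The step from muscle to passage 0 differed between cell types for some members. LAMA2 fell less in SCs than in FAPs, by a difference in log2FC of 2.82 ± 0.32 (adjusted p = 5.20e-09). Of the 5 members that could be tested in both types LAMA2 alone was called, where 20.0% of all genes were. DAG1 and SGCA entered this fit through their levels in SCs of muscle and were too low to test in FAPs, so nothing is read from their values.

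For VECs against FAPs 2 members could be tested in both types, SGCE and UTRN, and 25.6% of all genes were called. SGCE had a difference of 1.31 ± 0.25 (adjusted p = 2.27e-05), a call that was lost in thinned sums (1.21). In VECs SGCE passed the filter through muscle alone, with 3 to 28 UMIs per donor at passage 0, so nothing is read from this difference. UTRN had the larger step in VECs (-1.08 ± 0.18, adjusted p = 1.95e-06), a call that was lost with DESeq2 (-0.997), without TMM factors (-0.998) and with at least 30 cells (-0.89). SSPN, SGCB and LAMA2 entered through FAPs and were too low to test in VECs, so nothing is read from theirs. Both differences share the FAPs.

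From passage 0 to passage 2, several members rose again. In SCs, SGCA went from a median of 12.5 CPM to 71.0 CPM (25.3 to 87.6 over 9 donors), higher in 9 of 9 donors with no overlap (log2FC 2.26 ± 0.26, edgeR adjusted p = 2.10e-06). DAG1 rose from 5.61 to 14.1 CPM (1.29 ± 0.24, adjusted p = 0.000286), with the 2 ranges overlapping.

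UTRN in SCs rose from 67.4 to 124 CPM (log2FC 1.00 ± 0.11, adjusted p = 5.65e-07). It sat at the fold limit and was no longer called with donor as a block (0.98), with no filter (0.98), with DESeq2 (0.995) or without TMM factors (0.97). SGCB, uncalled at 1.00 ± 0.12, was called with the block (1.05) and in thinned sums (1.11). Both genes were higher in 9 of 9 donors without overlap. LAMA2 in SCs had medians of 22.8 and 13.4 CPM, with a log2FC of -0.71 ± 0.26 that was not called.

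In FAPs the members called were SGCD, SSPN and SGCE. SGCD had medians of 0.347 and 3.14 CPM, from 2 to 16 UMIs per donor at passage 0 and 57 to 117 UMIs at passage 2 in the 6 donors of unsorted and FAP cultures, while donors 5 and 10, with few FAPs, held 0 and 1 UMI. It passed the filter on low counts through passage 2, where it is high, so nothing is read from its call (log2FC 3.14 ± 0.32, edgeR adjusted p = 2.00e-07). SSPN rose from 1.61 to 7.82 CPM (2.37 ± 0.23, adjusted p = 7.93e-08) and SGCE from 11.4 to 23.1 CPM (1.18 ± 0.16, adjusted p = 4.36e-06). SGCA in FAPs had medians of 1.36 and 1.45 CPM, with a log2FC of 0.11 ± 0.17.

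The calls at passage 2 came to 3 of 8 tested members higher in FAPs, SGCD among them, and 3 of 7 in SCs, with 0 lower in either, where 19.3% and 10.0% of all genes tested were called. In SCs the fibre genes moved too, from 1.02 to 3.71 CPM summed over 10 genes at passage 0 to 29.1 to 2426 CPM at passage 2 with none of them at 0, and in FAPs from 1.11 to 2.86 CPM to 19.2 to 26.1 CPM. The 5 SMMC markers summed to 20.6 to 99.99 CPM in SCs at passage 0 and 265 to 1271 CPM at passage 2, and to 24.6 to 66.4 CPM and 264 to 1186 CPM in FAPs. The FAP markers went from a median of 1426 to 4281 CPM in SCs and from 3503 to 12528 CPM in FAPs. The part of these markers in the rises was not tested. Of the other pathway genes 8 of 41 tested rose in FAPs, led by LAMA3 (3.46), SLIT3 (2.50) and LAMB2 (1.56), and 5 of 35 in SCs, led by CAV3 (5.81), the caveolin of muscle, ITGA7 (1.53) and HSPG2 (1.46), and 0 fell in either. ITGA7 was among the surface markers by which the paper sorted SCs after passage 0.

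**Figure D3:**
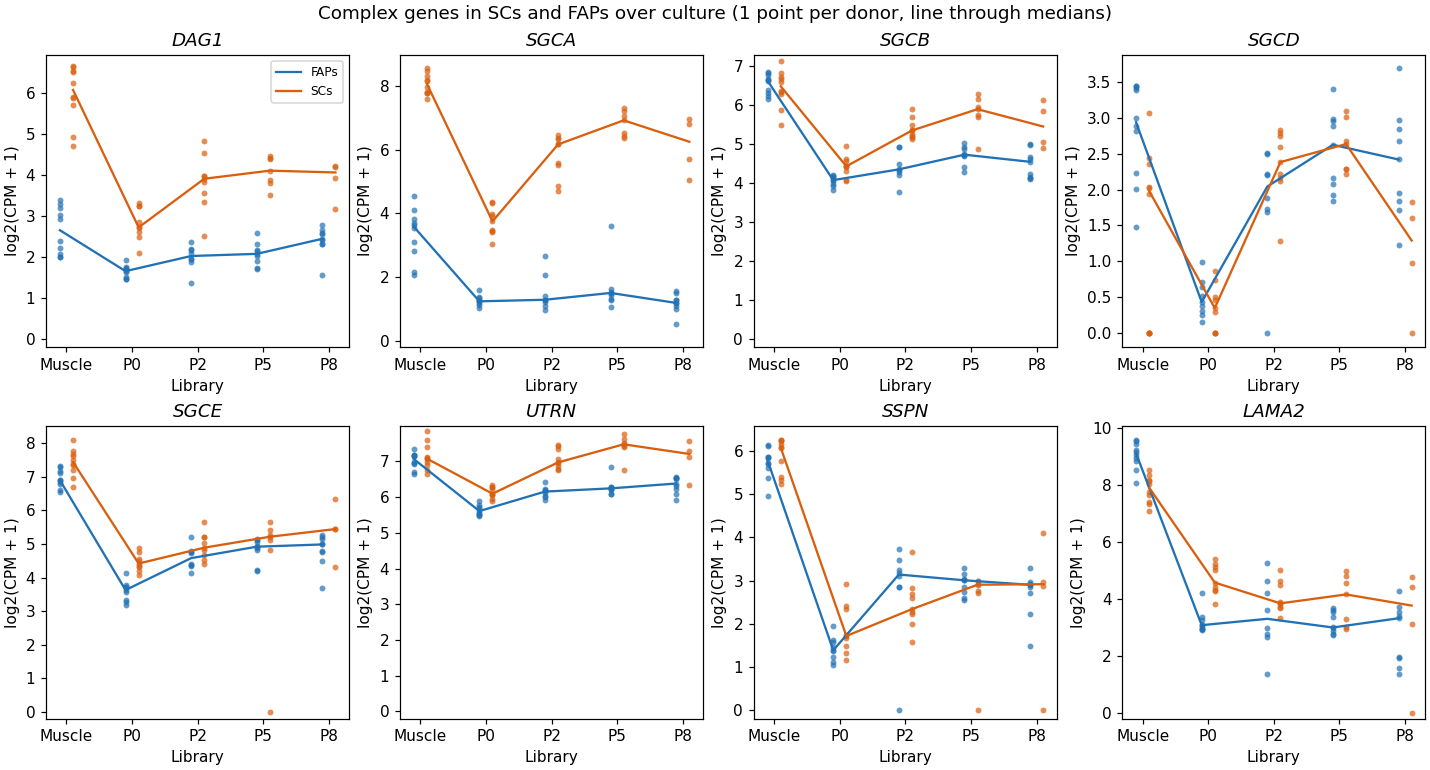
Levels of the 8 members in FAPs (blue) and SCs (orange) as log2(CPM + 1) on the y axis, by library on the x axis from muscle to passage 8, with 1 point per donor and lines through the medians. SGCA in SCs went through medians of 269, 12.5, 71.0, 121 and 81.0 CPM, while in FAPs its median was 11.0 CPM in muscle and between 1.28 and 1.84 CPM in culture.

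SCs and FAPs within the later libraries differed most in SGCA. At passage 5 SGCA ranged from 81.6 to 159 CPM in SCs of 7 donors (median 121) and from 1.09 to 11.3 CPM in FAPs of 9 donors (median 1.84). At passage 8 it ranged from 32.2 to 123 CPM in 4 donors' SCs and from 0.432 to 1.98 CPM in 9 donors' FAPs. In each of the 5 libraries SGCA and DAG1 did not overlap between the 2 types. For DAG1 the lowest SC value was 1 UMI in 12 cells at passage 8 (donor 9, 8.04 CPM) and 3 UMIs at passage 0 (donor 2, 3.26 CPM). At so few UMIs the lack of overlap is not firm. The log2FC of SGCA was 5.36 ± 0.31 at passage 2, 5.81 ± 0.29 at passage 5 and 5.97 ± 0.30 at passage 8 (adjusted p = 1.34e-09, 2.09e-10 and 9.05e-09), and that of DAG1 was 2.07 ± 0.25, 2.12 ± 0.18 and 1.77 ± 0.28 (adjusted p = 3.86e-06, 6.90e-08 and 0.000614). At passage 8 SGCA passed the filter on low counts through SCs, where it is high, so nothing is read from that call.

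SGCB and UTRN were called higher in SCs at some later passages, by a smaller step. Neither was called at passage 0 (log2FC 0.41 and 0.50) or passage 2 (0.90 and 0.89), nor UTRN at passage 8 (0.80). SGCB had a log2FC of 1.04 ± 0.16 at passage 5 (adjusted p = 6.62e-05) and 1.06 ± 0.27 at passage 8 (adjusted p = 0.0166), and the latter was lost without donor 6 (0.96) or donor 10 (0.72). UTRN had 1.08 ± 0.11 at passage 5 (adjusted p = 5.59e-07), with medians of 177 CPM in SCs and 74.8 CPM in FAPs, and lost its call in thinned sums (0.77).

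SSPN and LAMA2 were called between SCs and FAPs in some libraries. SSPN was called lower in SCs at passage 2 (log2FC -1.08 ± 0.29, adjusted p = 0.00726) but not with donor as a block (-0.71) or without TMM factors (-0.985), and SCs of donor 8, at 11.8 CPM from 4 UMIs in 18 cells, lay apart from the other SCs. LAMA2 was called lower in SCs in muscle and higher at passage 0. Its values at passages 2, 5 and 8 were -0.07 ± 0.40, 0.98 ± 0.29 and 0.95 ± 0.77, none called. With donor as a block they were 0.37, 0.97 and, with a call, 2.00. At passage 5 LAMA2 was called without TMM factors (1.14) and with at least 30 cells (1.00). Within donors LAMA2 was higher in SCs in 9 of 9 at passage 0, 6 of 8 at passage 2, 7 of 7 at passage 5 and 3 of 4 at passage 8. SGCE and SGCD were called in none of the 5 libraries (SGCD was tested in 3).

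**Figure D4:**
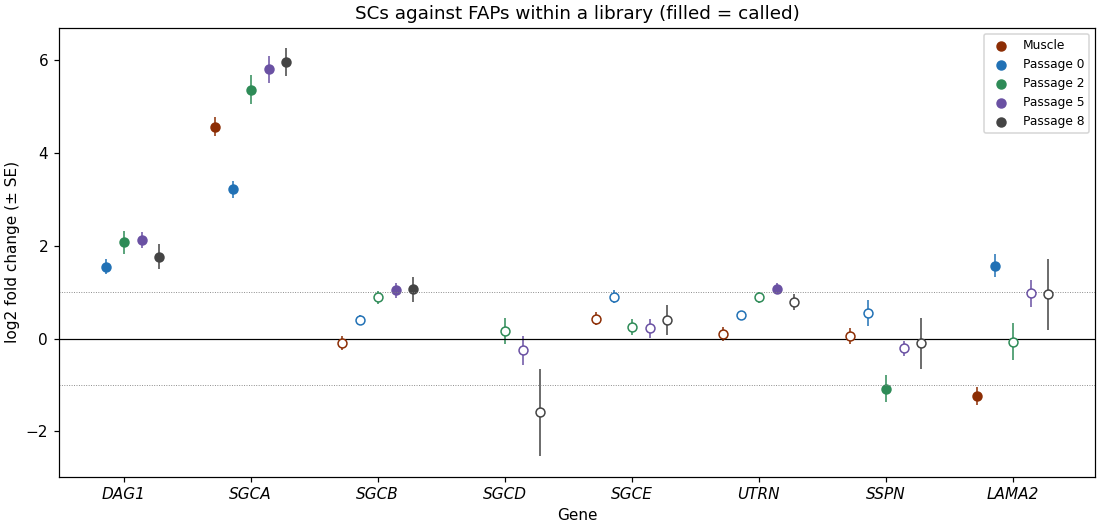
Log2 fold change of SCs against FAPs on the y axis (± SE) for each member on the x axis, coloured by library, with filled points called and dotted lines at the fold limit. SGCA lies between 3.22 and 5.97 in all 5 libraries and DAG1 between 1.55 and 2.12 in the 4 libraries where it was tested, and LAMA2 goes from -1.25 in muscle to 1.57 at passage 0.

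The members called between SCs and FAPs were 1 higher and 1 lower of 6 tested in muscle (19.9% of all genes called), 3 higher of 7 at passage 0 (10.7%), 2 higher and 1 lower of 8 at passage 2 (14%), 4 higher of 8 at passage 5 (16.3%) and 3 higher of 8 at passage 8 (6.69%). SGCA in muscle and at passage 8 is among the higher calls but passed the filter through SCs. Among the other pathway genes at passage 5, 13 of 44 tested were higher in SCs and 6 lower. CAV3 (6.12) and the laminin receptor ITGA7 (4.52) were higher. The paper sorted SCs with ITGA7 among its markers, so nothing is read from the call of ITGA7. KRT19, a keratin that binds the complex in striated muscle, was lower with a wide error (-4.69 ± 1.75, edgeR adjusted p = 0.0443). Fibre genes summed to 78.0 to 6592 CPM in SCs and 34.5 to 64.3 CPM in FAPs at passage 5, and their part in these differences was not tested.

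Over the later passages no member was called within FAPs of FAP cultures (passage 5 against 2, 8 against 5 and 8 against 2) or SCs of SC cultures (5 against 2), each with 3 donors against 3. At an unadjusted p below 0.05 these 4 comparisons had 3378, 2733, 785 and 3203 genes, and 0.797%, 0.328%, 0.0361% and 3.01% of all genes tested were called. With donor as a block 6 member tests were called, and with DESeq2 3. In FAPs, SGCD was higher at passage 5 (block 1.24) and 8 (1.17) than at passage 2 and LAMA2 lower (-1.24 and -1.41), and in SCs SSPN (1.05) and LAMA2 (1.04) were higher at passage 5. Without the block the same 6 values ran from -1.33 (LAMA2) to 1.195 (SGCD) and none was called. LAMA2 in SCs was also called without donor 6 (1.30).

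Levels by culture kind rest on 2 or 3 donors each and were not tested. LAMA2 in FAPs at passage 2 was 17.3 to 37.2 CPM in FAP cultures, 5.89 to 11.3 CPM in unsorted cultures and 1.60 to 5.34 CPM in SC cultures. The last range is that of 2 donors with 19 and 12 FAPs, which held 1 and 2 UMIs of LAMA2. At passage 5 the levels ran from 7.00 to 11.9, 5.90 to 10.7 and 5.64 to 9.38 CPM. SGCA in SCs at passage 5 was 134 to 159 CPM in unsorted cultures and 81.6 to 91.8 CPM in SC cultures, and LAMA2 in SCs there was 6.63 to 16.9 CPM and 22.5 to 30.7 CPM. At passage 2 SGCA in SCs was 71.0 to 79.6 CPM and 25.3 to 87.6 CPM. LAMA2 in SCs at passage 2 was 12.1 to 13.99 CPM in unsorted cultures and 9.04 to 21.6 CPM in SC cultures. How many other genes differ between culture kinds was not counted.

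Over the 19 combinations of cell type and timepoint with at least 3 donors, the genes most like each member in mean log2(CPM + 1) were taken among 9757 genes. Combinations of 1 timepoint share a library, so these correlations are a description. They were DDR1 for DAG1 (Pearson r = 0.94), CXCL10 for SGCA (0.96), PHLDB1 for SGCB (0.95), THBS3 for SGCD (0.90), MAPRE3 for SGCE (0.95), ACTR8 for UTRN (0.87), STON1 for SSPN (0.89) and MAB21L1 for LAMA2 (0.93). Among the members themselves r ran from 0.12 for SGCA with UTRN to 0.83 for DAG1 with SGCE.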

How the data were processed

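The authors deposited raw UMI counts per gene and barcode from CellRanger 6.0.1 on ARS-UCD1.2, with tables giving each barcode's donor (demuxlet), quality class and cell type. These counts were the starting point, and 11 columns of the cell table were not used, nor was the authors' combined expression table. Doublets of the same donor are not found by demuxlet, and no other caller was run. Libraries run more than once share a matrix. The members and gene lists were chosen with earlier results of these data known.

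Counts were summed per donor and type (at least 10 cells), which makes the donor the replicate. At least 3 donors a side were required. They were fitted in edgeR 4.0.16 (quasi-likelihood F test, robust, TMM, filterByExpr) in R 4.3.3, with Benjamini-Hochberg adjustment over all genes tested. Type against rest used the sum of the donor's other cells. Each SE was taken as log2FC (unsigned) over the root of its F value. DESeq2 1.42.0, no filter, no TMM factors, at least 30 cells, donor as a block, thinned sums, no fold limit and leaving out each donor were the alternatives. On simulated counts, 99.0% to 99.5% of changed genes were recovered in 4 comparisons. Of the unchanged genes 3 were called in FAPs at passage 5 against 2 and 0 in the others. All changes set were well past the fold limit and spared the least expressed genes, with a fixed dispersion and no donor effect. These shares are therefore no measure of power near the limit or at few UMIs.

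Timepoints share donors, so a donor pairs its own sums. Same-donor correlations of deviations were -0.01 to 0.14 in FAPs, -0.13 to 0.18 in SCs and -0.02 to 0.18 in VECs. Though these r values are small, 8 of 9 donors had themselves as best match when FAPs were compared. For VECs this held for 7 donors, and for SCs for 4. Pairing is therefore not shown to be absent, and the main fits leave it out, with donor as a block among the alternatives. Pairing between cell types within 1 library was not tested. In muscle sums of SCs held 97693 to 450674 UMIs, so 1 UMI is worth several CPM, and intervals cover counting error only. Other genes named are, per comparison, those with the widest called log2FC of the pathway list, and 1 item among them is not reported here. In the series 68 symbols stand for several genes and were not matched. No coordinates are given, since the gene table at hand is of another assembly.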

Additional observations from a re-analysis of the deposited data

Results flagged for a closer look

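Of 84 donor groups with enough counts, 9 held a donor far from the rest by Dixon's test, which chance gives in about 1 in 20. They were donor 5 in FAPs for DAG1 at Timepoint 5 (1.95 CPM) and LAMA2 at Timepoint 2 (17.6 CPM), donor 6 in FAPs at Timepoint 4 for SGCA (11.3 CPM) and UTRN (114 CPM), donor 8 for SSPN in SCs at Timepoint 3 (11.8 CPM, 4 UMIs in 18 cells) and donor 4 for SSPN in SCs at Timepoint 4 (0 CPM). The last is a sum of 10 cells with 141002 UMIs in all, too few to tell 0 from the median of 6.49 CPM. UTRN added donor 8 in monocytes/macrophages (0 CPM) and donor 2 in SMMCs (588 CPM) in muscle, and donor 9 in VECs at Timepoint 2 (126 CPM).

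The step from muscle to passage 0 was called as different between types in the fit of the difference itself for 7 values. For SCs minus FAPs the difference in log2FC was 2.82 for LAMA2, -1.38 for SGCA and -1.85 for DAG1. For VECs minus FAPs it was 2.57 for SSPN, 1.31 for SGCE, 1.29 for SGCB and -1.08 for UTRN. SGCA and DAG1 were too low to test in FAPs alone, and SSPN and SGCB in VECs alone, so their 4 values rest on a group that did not pass the filter and show no difference between types. SGCE in VECs passed the filter through muscle alone, so nothing is read from its value either.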

How the results depend on the processing

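No called value changed sign under any alternative run. Counts of called members and of all genes were summed over the comparisons of a kind. For types against rest in muscle, 31 members became 12 thinned, and 11149 genes became 2873 thinned, 25259 with no filter and 21842 on p alone. At passage 0, 16 members became 5 thinned, 10 with at least 30 cells and 26 on p alone, and 10238 genes became 2601, 6716 and 28088. For passage 0 against muscle, 17 members became 32 with no filter, and 11016 genes became 26709 with no filter, 4574 thinned and 21189 on p alone. For differences between types, 7 members became 2 thinned, and 3962 genes became 1411 thinned and 7575 on p alone. For passage 2 against 0, 6 members became 2 thinned and 13 on p alone, and 3178 genes became 885, 12204 and, with no filter, 5598. For SCs against FAPs, 15 members became 3 thinned and 23 on p alone, and 6172 genes became 1340, 16391 and, with no filter, 11909. For the late passages, 0 members became 3 with DESeq2, 6 with donor as a block and 0 to 1 leaving out a donor, and 502 genes became 1464, 1827 and 135 to 452 leaving out a donor (135 without donor 5 or donor 10), 1275 on p alone and 286 with all donors. Thinned sums hold fewer counts, and fewer genes passed the filter. The block changed the call of no other member result than those given above. Muscle depth limits SGCD, and DAG1 and SGCA outside SCs.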

Other observations

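SGCA in muscle monocytes/macrophages was looked at after its values were seen. These cells held 86 UMIs of it in 56 of 403 cells (13.9%) at a median depth of 6108 UMIs per cell. The share was 5.61% of 1231 FAPs at a depth of 6213 UMIs, 2.14% of 1166 VECs at 2778.5 UMIs, 0.547% of 548 SMMCs at 2792 UMIs and 1.60% of 188 lymphocytes at 4407 UMIs. In monocytes/macrophages SGCA ranged per donor from 7.41 to 57.1 CPM with a median of 28.6 CPM. Monocytes/macrophages had the higher level in 10 of 10 donors against SMMCs, 9 of 10 against lymphocytes, 9 of 10 against FAPs and 8 of 10 against VECs, and 7 of 10 donors were at 0 in SMMCs and in lymphocytes. These counts are a description, since the gene and the cells were picked for this pattern. Of other genes high in SCs, the same cells held 1 UMI of DAG1, 14 of MYF5 and 1 of CHRDL2, where SCs held 213, 1917 and 1017 beside 804 of SGCA. They held 326 UMIs of the fibre gene ACTA1, where the myocytes held 4929 beside 30 of SGCA. At passage 0, 9 UMIs of SGCA were found in 141 monocytes/macrophages, 7 of them in donor 1 (27.9 CPM), and the other 6 donors with at least 10 such cells were at 0. The part of muscle fibre RNA in these values was not tested.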
